A study of Mus musculus with 12 samples.

Results

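Transcripts were compared between 3 Mdmx-Tg and 3 Wild-type libraries of mouse bone marrow, 6 of the 12 libraries of the series, chosen by their genotype labels alone. Mdmx-Tg mice carry a transgene for Mdmx, the protein encoded by the gene Mdm4. The other 6 libraries came from 3 Pu.1-URE-/- mice, in which a regulatory element upstream of Spi1 is deleted (Spi1 encodes the transcription factor PU.1), and from 3 Mdmx-Tg/Pu.1-URE-/- mice, called double mutants here, which carry both changes. In the Wild-type and Mdmx-Tg mice that element is intact. Cells were sorted from marrow as negative for Flk2 and for lineage markers and positive for Sca-1 and Kit, a gate that enriches haematopoietic stem cells and early progenitors, and each library is numbered for its own mouse. The promoter and construct of the transgene, the number of transgenic lines, and the age, sex and strain of the mice are not given in the sources used here. P-values measure the spread between mice of the same genotype, 3 mice each. In the edgeR, DESeq2 and limma fits that spread was estimated over all 12 libraries unless stated otherwise.

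MDMX and its relative MDM2 bind the transactivation domain of the tumour suppressor p53, and MDMX forms a heterodimer with MDM2 through their RING domains that promotes p53 ubiquitination. When p53 is released, it activates genes of cell cycle arrest, apoptosis and DNA repair, among them Cdkn1a and Mdm2 itself. Haematopoietic stem cells are mostly quiescent, and their maintenance depends on a network of transcription factors that includes Mecom and Erg.

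Reads of Mdm4 were assigned to different transcripts in the transgenic cells, and the bases at which these transcripts differ are shown first. Mdm4 lies on the minus strand of chromosome 1 in build GRCm38. The GENCODE M21 transcripts Mdm4-201 and Mdm4-210 both code for a protein, and their coding sequences differ by 3 bases at the junction of exons within chr1:133012688-133018800. The sequences are read 5′ to 3′, and capitals mark the bases that only the first holds.
Mdm4-201: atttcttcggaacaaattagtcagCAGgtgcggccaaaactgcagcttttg
Mdm4-210: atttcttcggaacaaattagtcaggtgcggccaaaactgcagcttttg
The transcripts also differ in length. Mdm4-201 is 1914 bases long, with 1470 coding bases and 305 bases after them, and Mdm4-210 is 7105 bases long, with 1467 coding bases and 5439 bases after them.

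Mdm4-201 carried most of the additional Mdm4 reads, and reads of the transgene and of the mouse's own gene were not told apart here. It was assigned 22274, 16389 and 6452 estimated reads in Mdmx-Tg 1, 2 and 3, against 106, 0 and 0 in Wild-type 1, 2 and 3. Its mean share of the gene's reads was 1.02% ± 1.8 (SD, n = 3) in Wild-type and 76.2% ± 4.5 (SD, n = 3) in Mdmx-Tg. Mdm4-210 was assigned 3154, 3614 and 2059 reads in Wild-type and 2323, 2789 and 1799 in Mdmx-Tg, so the number of reads on the main Wild-type transcript overlapped between the genotypes while its share went from 90.6% to 13.8%. The non-coding Mdm4-204 had 0, 11 and 0 reads in Wild-type and 1937, 1096 and 392 in Mdmx-Tg. The double mutants had 12128, 4477 and 5742 reads on Mdm4-201 against 145, 143 and 0 in Pu.1-URE-/-, so every library labelled as transgenic stood above every library that was not. The shift between Mdm4 transcripts was called (adjusted p = 0.00366 by edgeR's test of transcript usage, 0.00382 by limma's), and it stayed under 0.05 when any of the 6 libraries was left out.

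**Figure D1:**
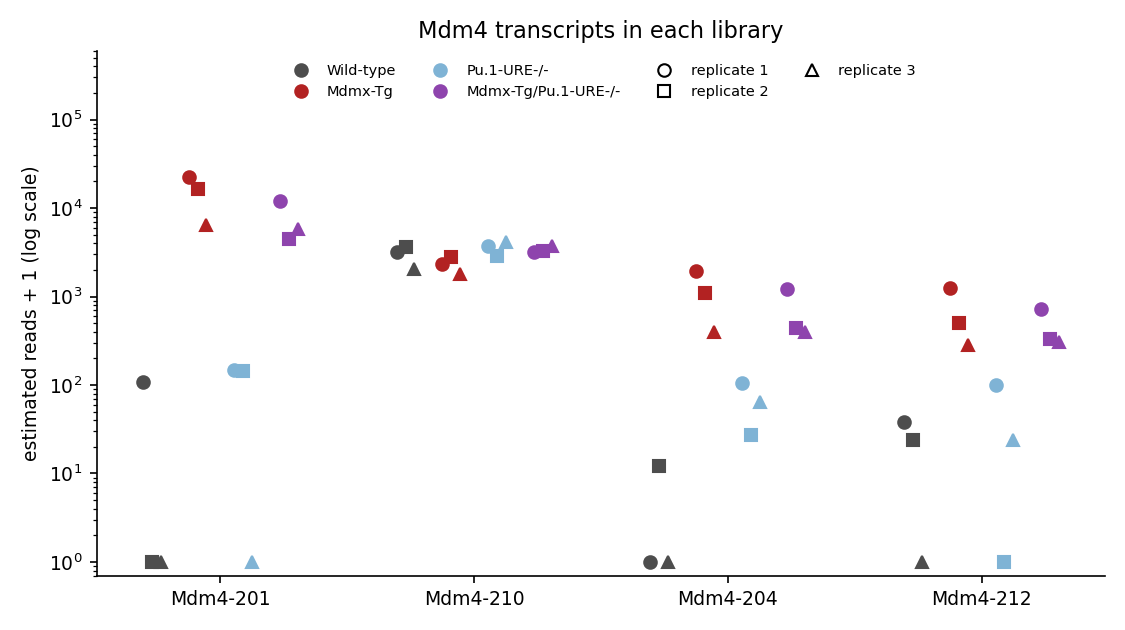
Estimated reads plus 1 (log axis) assigned to 4 Mdm4 transcripts in each of the 12 libraries, coloured by genotype, with the symbol showing the replicate. Mdm4-201 lies at 4477 reads or more in the 6 transgenic libraries and at 145 or fewer in the 6 others, and Mdm4-210 overlaps between the genotypes.

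Summed over transcripts, Mdm4 was at 77.9, 70.9 and 35.8 CPM (reads scaled to library size) in Wild-type and at 535, 414 and 163 in Mdmx-Tg. The groups did not overlap, and Mdmx-Tg 3 had the lowest level of the transgenic mice. The log2 change was 2.59 with a standard error (SE) of 0.475, a 6.02-fold difference. With transcript lengths as an offset, which counts a short transcript for more, the log2 change was 4.52 (SE 0.63, edgeR adjusted p = 0.0845). By edgeR's quasi-likelihood test the adjusted p over all genes was 0.259, by DESeq2 it was 1.48e-06, and by edgeR without Mdmx-Tg 3 it was 0.0319. An exact two-sided permutation test of the 6 CPM values gave p = 0.1, the smallest that 3 against 3 allows.

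The libraries held 47231545 to 55030252 assigned reads, and log2 CPM correlated pairwise at 0.841 to 0.897 across genes. Immunoglobulin transcripts, which the lineage gate should leave out, took 31.2%, 10.3% and 0.427% of reads in Wild-type and 3.79%, 6.91% and 10.6% in Mdmx-Tg. Markers of plasma cells and mature B cells, 18 of 25 of them tested, summed to 599 to 26471 CPM in Wild-type and 3769 to 12926 in Mdmx-Tg, and the groups overlapped. Mitochondrially encoded transcripts took 1.46%, 2.39% and 1.61% of reads in Wild-type and 3.25%, 3.33% and 2.52% in Mdmx-Tg. Every Mdmx-Tg library had fewer genes with at least 10 reads (12824 to 13328) than every Wild-type library (13403 to 14117). Y-linked transcripts reached 222 CPM in Wild-type 2 and 2.16 to 4.25 CPM in the other 5, so 1 library stands apart in these genes. The gate gene Kit was at 274, 328 and 311 CPM in Wild-type and 277, 270 and 325 in Mdmx-Tg. Flt3, which encodes Flk2, was at 12.3, 7.06 and 13.6 CPM in Wild-type and 5.83, 19.8 and 22.2 in Mdmx-Tg. Ly6a, a gene for Sca-1, reached 97.2 CPM in Wild-type 1 and was at 29.7 or less in the other Wild-type libraries, around the 43.1 to 85.2 of Mdmx-Tg. The part of immunoglobulin reads, mitochondrial reads and the number of detected genes in the differences below was not tested beyond the fits named with them. In bulk libraries fewer cells of a type and less RNA per cell cannot be told apart.

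The p53 pathway was examined next. Trp53, the gene for p53, was at 325, 378 and 416 CPM in Wild-type and 252, 160 and 372.5 in Mdmx-Tg, and the groups overlapped. Its log2 change was -0.51, and -0.85 without Mdmx-Tg 3 (edgeR adjusted p = 0.114). DESeq2 without Mdmx-Tg 3 gave -0.84 (adjusted p = 0.00686), the only setting tried in which Trp53 passed the threshold. Mdm2 was at 40.4, 42.0 and 34.5 CPM in Wild-type and 50.3, 50.1 and 33.3 in Mdmx-Tg (log2 change 0.19, SE 0.268), again with overlap. Cdkn1a, the cell cycle inhibitor p21 and a p53 target, was at 10.9, 16.5 and 13.1 CPM in Wild-type and 12.9, 3.12 and 5.04 in Mdmx-Tg. Spi1 itself was at 37.98, 5.33 and 8.08 CPM in Wild-type and 21.6, 13.5 and 3.69 in Mdmx-Tg, a spread within each genotype larger than the difference between them.

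Of 15012 genes tested, 993 (6.61%) were higher in all 3 Mdmx-Tg libraries than in all 3 Wild-type libraries, and 1058 (7.05%) were lower in all 3. An unadjusted edgeR p under 0.05 was reached by 764 genes that were higher (5.09%) and 812 that were lower (5.41%). Against these shares, 33 of 38 listed p53 regulators were tested, of which 3 were higher and 4 lower without overlap. The 3 higher genes include Mdm4 itself, whose product the transgene encodes. The median log2 change of the list was -0.12 beside 0.0033 over all genes, of which 50.2% were above 0. Chek1, the kinase that acts on stalled replication forks, was higher without overlap (26.5, 41.2 and 41.0 CPM against 45.6, 61.3 and 60.02). Cop1, a ubiquitin ligase for p53, was also higher (20.6, 25.04 and 33.3 CPM against 42.8, 49.1 and 33.8). Chek2, the kinase activated by double-strand breaks, was lower without overlap (43.9, 52.4 and 58.3 CPM against 35.6, 36.3 and 33.5). Hipk2, a kinase of p53, was lower at 13.6, 12.5 and 12.03 CPM against 13.7, 24.5 and 20.9. Daxx, a partner of MDM2, was lower at 28.8, 20.2 and 30.6 CPM against 36.2, 37.0 and 47.3, but its log2 change of -0.60 became 0.33 when transcript lengths were used as an offset. The edgeR adjusted p of these 5 genes lay between 0.401 and 0.535.

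Of the 49 listed p53 target genes 46 were tested, with a median log2 change of -0.14 that turned to 0.21 without Wild-type 1. Only 2 were higher and 3 lower without overlap. Perp, a desmosomal membrane protein, was at 1.24, 1.34 and 1.93 CPM in Wild-type and 4.83, 6.12 and 4.54 in Mdmx-Tg. Tap1, the peptide transporter of antigen presentation, was at 102, 92.6 and 118 CPM in Wild-type and 67.5, 55.5 and 61.3 in Mdmx-Tg. Aen, a nuclease of apoptosis, was at 91.6, 113 and 122 CPM in Wild-type and 89.6, 71.5 and 76.3 in Mdmx-Tg. Phlda3, an inhibitor of Akt, had no read in any Mdmx-Tg library and 5.38, 1.40 and 0 CPM in Wild-type, so that its groups touch at 0. DESeq2 called Phlda3 (adjusted p = 0.00124) and edgeR did not (adjusted p = 0.367).

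Across all functions, no gene passed edgeR's quasi-likelihood test at an adjusted p of 0.05 (0%), and limma-voom also called 0. DESeq2 called 155 genes higher (1.03%) and 175 lower (1.17%). Of these 330 genes, 231 did not overlap between the genotypes, 81 had no read in Mdmx-Tg, 30 had none in Wild-type, and 38 had reads in only 1 of the 6 libraries. Of the 214 whose log2 CPM averaged 2 or more, 123 were higher, 91 were lower and 186 did not overlap. Mdmx-Tg 3 decided the edgeR count. Without it edgeR called 42 genes higher (0.268%) and 67 lower (0.427%), and DESeq2 called 545 (3.47%) and 862 (5.49%). All 109 edgeR genes had the same sign in the main fit, 62 of them did not overlap over the 6 libraries, and 53 were among the 330. These counts reuse the libraries by which the 109 were called, so they are no separate support for the calls. In 83 of the 109, Mdmx-Tg 3 lay on the same side of the Wild-type mean as the other transgenic mice. The share of all genes for which this holds was not counted.

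Of the 15 higher genes with the smallest edgeR p whose groups did not overlap, Mdm4 and the 8 described next are given with their values. Marcks, an actin-binding substrate of protein kinase C at the plasma membrane, was at 7.66, 8.20 and 5.63 CPM in Wild-type and 20.5, 25.0 and 20.6 in Mdmx-Tg. Its log2 change was 1.62 (SE 0.207), a 3.08-fold difference, with an adjusted p of 0.113 by edgeR, 0.0319 by edgeR without Mdmx-Tg 3, and 1.75e-10 by DESeq2. Osbpl8, a lipid transfer protein of contact sites between endoplasmic reticulum and plasma membrane, was at 75.1, 102 and 104 CPM in Wild-type and 189, 224 and 170 in Mdmx-Tg. Abcg1, a cholesterol efflux transporter, was at 267, 344 and 248 CPM in Wild-type and 775, 1173 and 465 in Mdmx-Tg. All 3 genes were higher without overlap and were called by DESeq2 and by edgeR without Mdmx-Tg 3.

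Cdkn1b, the inhibitor p27 of cyclin-dependent kinases, was at 31.1, 31.6 and 39.8 CPM in Wild-type and 129, 120 and 79.8 in Mdmx-Tg. The change was 3.20-fold (log2 1.68, SE 0.337), with an adjusted p of 0.317 by edgeR, 0.000256 by DESeq2 and 0.0469 by edgeR without Mdmx-Tg 3. Jak2, the kinase of the erythropoietin and thrombopoietin receptors, was at 51.4, 41.0 and 44.1 CPM in Wild-type and 91.8, 88.7 and 76.4 in Mdmx-Tg. Ulk2, a kinase that starts autophagy, was at 16.1, 8.86 and 18.3 CPM in Wild-type and 39.1, 37.0 and 36.1 in Mdmx-Tg. Parp9, a macrodomain protein of the interferon response, was at 25.5, 19.2 and 34.8 CPM in Wild-type and 54.4, 71.5 and 58.7 in Mdmx-Tg. These 4 genes were called by DESeq2 and did not overlap. Cebpa, the transcription factor of granulocyte commitment, was low throughout, at 2.17, 1.25 and 1.19 CPM in Wild-type and 6.30, 9.05 and 7.48 in Mdmx-Tg, a 4.95-fold difference (DESeq2 adjusted p = 4.28e-05, edgeR 0.259).

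Of the 15 lower genes chosen in the same way, the following are described. Dda1, a subunit of the CRL4 ubiquitin ligases, was at 81.3, 99.4 and 99.4 CPM in Wild-type and 30.5, 37.6 and 41.2 in Mdmx-Tg. It was 2.56-fold lower (log2 -1.36, SE 0.198), with an adjusted p of 0.134 by edgeR, 0.0372 by edgeR without Mdmx-Tg 3, and 1.12e-07 by DESeq2. Edrf1, known as an erythroid differentiation regulatory factor, was at 22.5, 26.1 and 24.6 CPM in Wild-type and 7.82, 5.73 and 4.59 in Mdmx-Tg, 4.03-fold lower. Its edgeR adjusted p without Mdmx-Tg 3 was 0.0450, and edgeR's main fit did not call it. Fastk, a mitochondrial RNA-binding protein, was at 20.2, 13.8 and 18.6 CPM in Wild-type and 1.86, 4.79 and 4.36 in Mdmx-Tg. Nop2, a methyltransferase of ribosomal RNA, was at 128, 127 and 127 CPM in Wild-type and 55.3, 47.1 and 72.2 in Mdmx-Tg. Tut1, which adds uridines to U6 small nuclear RNA, was at 48.4, 38.1 and 45.0 CPM in Wild-type and 21.7, 20.4 and 20.9 in Mdmx-Tg. In each of these genes every Mdmx-Tg library lay below the lowest Wild-type library.

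Scarb2, a lysosomal membrane receptor, was at 37.9, 52.3 and 56.2 CPM in Wild-type and 21.1, 22.0 and 26.6 in Mdmx-Tg. Wars, the tryptophanyl-tRNA synthetase, was at 72.4, 77.4 and 79.5 CPM in Wild-type and 24.3, 12.7 and 36.9 in Mdmx-Tg. Both were called by DESeq2 (adjusted p 0.00240 and 0.00250). Degs2, a sphingolipid desaturase, had no read in any Mdmx-Tg library and 0.474, 1.71 and 1.64 CPM in Wild-type. Of the 15012 genes tested, 71 had no read in Mdmx-Tg with reads in every Wild-type library, against 9 in the other direction. In total, 519 had no read in Mdmx-Tg and 245 had none in Wild-type. Every Mdmx-Tg library also had fewer detected genes than every Wild-type library, and the part of this in these counts was not tested. Rundc3b and Slc2a10 were the reverse case of Degs2, at 0 in Wild-type and at 1.74 to 5.28 and 5.50 to 13.4 CPM in Mdmx-Tg.

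**Figure D2:**
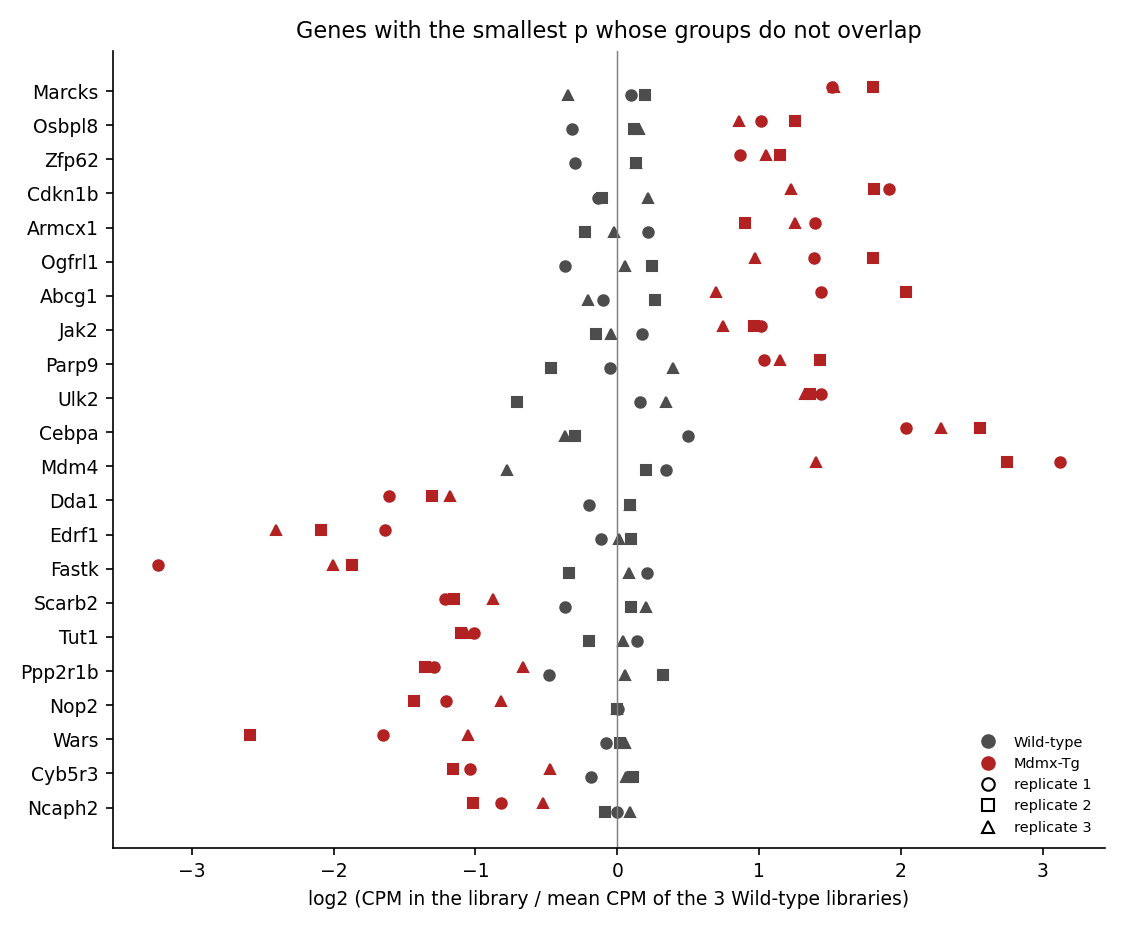
Log2 of the CPM in each library over the mean CPM of the 3 Wild-type libraries, for 22 genes named by the rule in the processing notes that have reads in all 6 libraries. Grey points are Wild-type, red points Mdmx-Tg, and the symbol is the replicate, and in each gene the 3 red points lie on the same side of the 3 grey points.

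A shift of assigned reads between transcripts of the same gene was called in more genes than edgeR called at the gene level. The counts come from unlike tests. On simulated data with less spread between libraries than here, edgeR's shift test called more unchanged genes than limma's. How the shift tests behave at the spread of these data was not tested. Of 9498 genes with several tested transcripts, 69 (0.726%) had a shift by edgeR's test and 94 (0.990%) by limma's, and 37 (0.390%) were called by both. Unadjusted p under 0.05 was reached by 16.2% of genes in the first test and 13.4% in the second. Both tests called Mdm4, Limk2, Ints14, Rnf26, Rbak, Cdc25b, Zbtb45, Mst1r, Hspa8 and 28 others. Of the 69, 12 had an unadjusted edgeR p under 0.05 at the gene level. Over all genes tested, 5.09% reached this as higher and 5.41% as lower. Salmon divides reads that fit several transcripts of a gene by a statistical model, so a transcript can be assigned 0 reads where it shares nearly all its sequence with another. Of the 26 single transcripts whose share was called, 20 were lower (0.0495% of transcripts) and 6 higher (0.0148%) in Mdmx-Tg, where 7.88% of all shares were lower and 4.87% higher without overlap, and 17 of the 20 had no read in any Mdmx-Tg library.

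Limk2, the kinase that inactivates cofilin by phosphorylation, had the smallest p (adjusted p = 1.02e-06 by edgeR, 1.59e-11 by limma). Limk2-201, the full-length coding transcript, was assigned 483, 426 and 1088 reads in Wild-type and 0, 9 and 0 in Mdmx-Tg. Limk2-208, a non-coding transcript from another start, had 198, 361 and 300 reads in Wild-type and none in Mdmx-Tg. Limk2-204 had none in Wild-type and 350, 276 and 404 reads in Mdmx-Tg. The shares of the 3 transcripts did not overlap between the genotypes: Limk2-201 went from 62.1% to 0.890% and Limk2-204 from 0% to 68.6%. In Mdmx-Tg 1 a further transcript, Limk2-203, held 563 reads and no other of the 6 libraries had any.

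Limk2-201 and Limk2-204 start at different places on the minus strand of chromosome 11, at chr11:3344256-3409174 and chr11:3344256-3356141. Limk2-201 has 1914 coding bases and Limk2-204 has 1353, and they begin translation at different start codons, shown in capitals at the head of the first 60 coding bases.
Limk2-201: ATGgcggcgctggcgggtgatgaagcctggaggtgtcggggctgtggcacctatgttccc
Limk2-204: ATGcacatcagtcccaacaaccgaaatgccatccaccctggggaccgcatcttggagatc
The 250 bases before the RefSeq starts nearest to them (build GRCm38.p6) are shown because they precede the transcripts that held most Limk2 reads in Wild-type and, on average, in Mdmx-Tg. Capitals mark matches on either strand to GGGCGG (GC box) or TATAA (TATA box), and CCAAT and the PU.1-type motif GAGGAAGT were searched too.
Limk2 start at chr11:3409239-3409488: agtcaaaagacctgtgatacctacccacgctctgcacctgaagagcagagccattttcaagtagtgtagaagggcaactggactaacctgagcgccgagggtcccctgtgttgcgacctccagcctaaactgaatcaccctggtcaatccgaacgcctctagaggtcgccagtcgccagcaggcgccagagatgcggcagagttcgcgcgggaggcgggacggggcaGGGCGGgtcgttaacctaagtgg
Limk2 start at chr11:3356142-3356391: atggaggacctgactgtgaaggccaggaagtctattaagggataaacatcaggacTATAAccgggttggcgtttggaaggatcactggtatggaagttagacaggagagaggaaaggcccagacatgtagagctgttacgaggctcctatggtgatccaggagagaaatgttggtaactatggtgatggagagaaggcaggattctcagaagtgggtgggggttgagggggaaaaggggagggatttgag
The window before Limk2-201 has 17 CpG dinucleotides and 1 GC box, and the window before Limk2-204 has 3 CpG dinucleotides and 1 TATA box. A further RefSeq start lies between them, near the start that Limk2-203 and Limk2-208 share, and its window (chr11:3371405-3371654) has 15 CpG dinucleotides and 2 GC boxes. None of the windows holds CCAAT or GAGGAAGT. Over 32851 RefSeq mouse promoter windows of the same length the median was 6 CpG dinucleotides, GGGCGG was found in 32.7%, TATAA in 22.8%, CCAAT in 33.8% and GAGGAAGT in 2.44%.

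In several genes a coding transcript present in every Wild-type library was assigned no read in Mdmx-Tg while its partner overlapped between the genotypes. Ints14, a subunit of the Integrator complex, had 438, 813 and 1136 reads on Ints14-201 in Wild-type and 0 in all 3 Mdmx-Tg libraries, and Ints14-202 had 2212, 3784 and 3694 against 2845, 2159 and 3378 (adjusted p = 7.42e-05 by edgeR, 0.0136 by limma). Both transcripts hold 1545 coding bases and differ outside them. Rnf26, a ubiquitin ligase of the endoplasmic reticulum, had 140, 466 and 263 reads on Rnf26-206 in Wild-type and 0 in Mdmx-Tg, with Rnf26-205 at 148 to 415 against 347 to 517. Cdc25b, a phosphatase that activates cyclin-dependent kinases, had 251, 289 and 1313 reads on Cdc25b-201 in Wild-type and 0 in Mdmx-Tg, with Cdc25b-202 at 642, 782 and 575 against 411, 795 and 1201. In each of these genes the lost transcript had reads in all 3 Wild-type mice, and the remaining transcript overlapped between the genotypes.

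Rbak, a KRAB zinc finger repressor, had 375, 1154 and 1377 reads on Rbak-201 in Wild-type and 0 in Mdmx-Tg, where its reads lay on Rbak-203, which retains an intron (119, 534 and 420). Mst1r, the receptor tyrosine kinase RON, had 1421, 3857 and 2426 reads in Wild-type on Mst1r-204, a transcript annotated for nonsense-mediated decay, and 0 in Mdmx-Tg. Zbtb45, a BTB zinc finger protein, had 119, 903 and 897 reads on Zbtb45-201 in Wild-type and 0, 2 and 0 in Mdmx-Tg, with Zbtb45-205 at 999, 954 and 1468 against 1268, 1876 and 2215. The shift of 7 genes stayed called whichever library was left out, among them Mdm4, Limk2, Ints14, Rnf26 and Zbtb45. Rbak-201 was also called as a transcript by edgeR (adjusted p = 0.00465), 1 of 9 transcripts called lower (0.0197% of 45740 tested). All 9 had no read in Mdmx-Tg, and 1 transcript was called higher (0.00219%). An unadjusted p under 0.05 was reached by 3.02% of transcripts that were higher and 6% that were lower, and DESeq2 called 1.12% higher and 2.5% lower.

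That transcript was Atp2a3-204, from the gene for the calcium pump SERCA3 of the endoplasmic reticulum. It had no read in Wild-type and 1589, 1951 and 536 in Mdmx-Tg (edgeR adjusted p = 0.0241). Atp2a3-201 had 1464, 1149 and 1310 reads in Wild-type and 0, 49 and 1206 in Mdmx-Tg, so Mdmx-Tg 3 kept the Wild-type form. Atp2a3-204 lacks 54 coding bases that Atp2a3-201 holds, within chr11:72980322-72980516 on the plus strand, in capitals here.
Atp2a3-201: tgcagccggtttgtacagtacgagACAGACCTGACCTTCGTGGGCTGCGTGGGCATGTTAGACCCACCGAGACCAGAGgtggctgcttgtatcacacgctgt
Atp2a3-204: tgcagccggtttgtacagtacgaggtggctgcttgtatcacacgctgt
The gene as a whole was not called for a shift (adjusted p = 0.131 by edgeR, 0.102 by limma).

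Hspa8 and Hnrnpa1 were chosen from their values. Hspa8, the constitutive cytosolic chaperone HSC70, had 1874, 3395 and 3032 reads on Hspa8-201 in Wild-type and 48898, 31974 and 42112 in Mdmx-Tg, and its share went from 2.02% ± 0.13 to 30.0% ± 5.5 (SD, n = 3 each). Hspa8-202 had 76342, 124601 and 106688 reads in Wild-type and 81864, 82886 and 69568 in Mdmx-Tg. The shift was called by both tests (adjusted p = 0.0124 by edgeR, 0.0162 by limma) but not by edgeR when Wild-type 1, 2 or 3 was left out in turn (adjusted p 0.0698 to 0.0988), when Mdmx-Tg 2 was left out (0.0536), or with a term for the replicate number (0.103). Hspa8-201 holds 57 coding bases, within chr9:40802600-40802819 on the plus strand, that Hspa8-202 skips.
Hspa8-201: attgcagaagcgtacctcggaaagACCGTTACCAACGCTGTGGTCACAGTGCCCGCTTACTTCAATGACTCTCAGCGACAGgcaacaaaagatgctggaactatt
Hspa8-202: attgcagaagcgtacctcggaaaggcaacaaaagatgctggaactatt
Hspa8 and Hnrnpa1 have processed copies elsewhere in the mouse genome, so the assignment of their reads is uncertain.

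Hnrnpa1, a splicing repressor that shuttles between nucleus and cytoplasm, had 8032, 7791 and 13009 reads on Hnrnpa1-205 in Wild-type and 35853, 105521 and 25893 in Mdmx-Tg. Hnrnpa1-202 had 38092, 72687 and 72094 against 53921, 57693 and 73320. The share of Hnrnpa1-205 was 12.7% ± 3.8 in Wild-type and 41.1% ± 19 in Mdmx-Tg (SD, n = 3 each), without overlap. The adjusted p was 0.00968 by edgeR and 0.0565 by limma, and by edgeR it was 0.109 without Wild-type 2 and 0.190 without Mdmx-Tg 2.

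**Figure D3:**
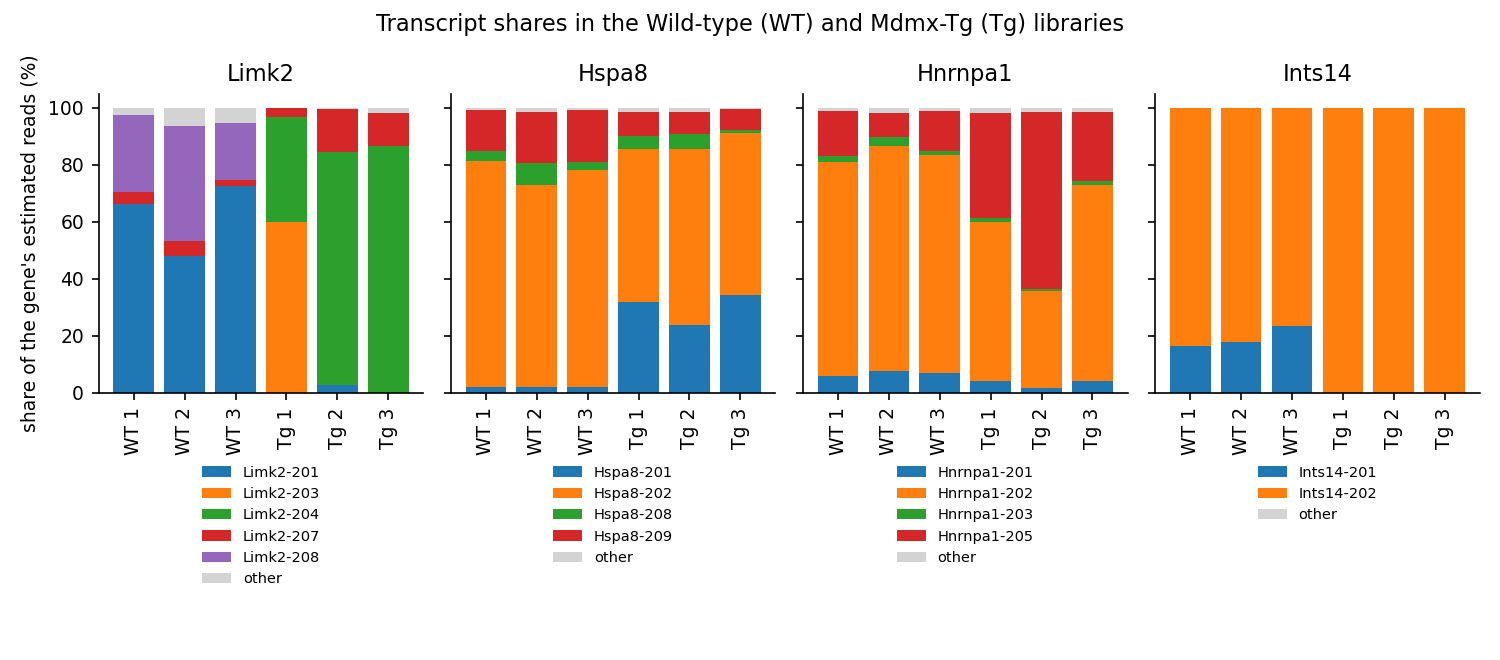
Share of each gene's estimated reads (percent) assigned to its transcripts in the 3 Wild-type (WT) and 3 Mdmx-Tg (Tg) libraries, for Limk2, Hspa8, Hnrnpa1 and Ints14. Limk2-201 and Limk2-208 give way to Limk2-204 or Limk2-203, Hspa8-201 goes from 2.02% to 30.0% on average, and Ints14-201 is absent from the Tg bars.

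Genes were then grouped into 40 lists by function, each described by its median log2 change and its counts. The counts stand beside the 6.61% of all genes that were higher and the 7.05% that were lower without overlap. Of the mitochondrially encoded genes, which code for respiratory chain and ATP synthase subunits, all 13 had a log2 change above 0, with a median of 0.63, 8 were higher without overlap and 9 had an unadjusted edgeR p under 0.05. The gene mt-Nd4, for a subunit of respiratory complex I, was at 634, 672 and 488 CPM in Wild-type and 939, 1087 and 898 in Mdmx-Tg. The complex I subunit gene mt-Nd6 was at 88.7, 65.8 and 75.8 CPM in Wild-type and 116, 165 and 126 in Mdmx-Tg, and mt-Nd2 was at 236, 198 and 156 against 284, 375 and 285. The gene mt-Atp8, for a subunit of ATP synthase, was at 849, 1086 and 767 CPM in Wild-type and 1380, 1881 and 1221 in Mdmx-Tg. DESeq2 called 4 of the 13 and edgeR called none. The median stayed between 0.44 and 0.73 under all settings tried, the lowest when the count of detected genes was a covariate. The 54 nuclear genes of oxidative phosphorylation had a median of -0.07, with 1 lower and 0 higher without overlap. Fastk, described above, encodes a protein known to act on the mt-Nd6 transcript. A link between Fastk and the mitochondrially encoded transcripts was not tested here.

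Erythroid genes had the lowest median of the lists of lineage genes, -0.88 over 38 tested genes, 34 of which were below 0. Without overlap 11 were lower and 1 was higher, and 4 had an unadjusted p under 0.05. Fech, the last enzyme of haem synthesis, was at 174, 264 and 205 CPM in Wild-type and 114, 81.2 and 144 in Mdmx-Tg (log2 -0.92, SE 0.229, DESeq2 adjusted p = 0.0144, edgeR 0.363). Chosen after their values were seen, Klf1, the erythroid master regulator, was at 405, 593 and 506 CPM against 121, 101 and 477, Gata1 was at 143, 213 and 216 against 50.9, 69.7 and 154, and Rhag, a red cell membrane protein, was at 102, 137 and 126 against 9.41, 34.5 and 81.9. Mdmx-Tg 1 and 2 were low in these genes and Mdmx-Tg 3 lay near Wild-type. The list's per-library median relative to the Wild-type mean was -1.17, -1.38 and -0.17 in Mdmx-Tg 1, 2 and 3, against -0.17, 0.14 and 0.05 in Wild-type, and without Mdmx-Tg 3 the median log2 change was -1.41. The listed erythroid genes summed to 7006 to 9596 CPM in Wild-type and 3388 to 7254 in Mdmx-Tg.

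Stem cell transcription factors were mostly above 0, with a median log2 change of 0.43 over 34 tested genes, 28 above 0, 7 higher and 1 lower without overlap. Mecom, needed for long-term stem cells, was at 35.8, 27.8 and 20.9 CPM in Wild-type and 116, 65.0 and 53.8 in Mdmx-Tg (2.78-fold, DESeq2 adjusted p = 0.0292, edgeR 0.367). Etv6, an ETS repressor, was at 105, 99.0 and 82.4 CPM in Wild-type and 183, 193 and 121 in Mdmx-Tg. DESeq2 called both. Ldb1, the adaptor of the GATA1 and LMO2 complex, was lower, at 63.0, 62.1 and 59.9 CPM in Wild-type and 31.4, 12.3 and 45.3 in Mdmx-Tg. The per-library median was 0.83, 0.39 and -0.07 in Mdmx-Tg 1, 2 and 3 and -0.09 to 0.08 in Wild-type, and the median log2 change was 0.14 without Mdmx-Tg 1 and 0.62 without Mdmx-Tg 3. Endothelial and stromal markers, 15 of 27 tested and 2 of 27 at 0 in all 6 libraries, had a median log2 change of 0.60 with 0 apart. Their per-library medians were 0.30, 0.66 and -0.21 in Mdmx-Tg 1, 2 and 3, and their summed CPM was 125 to 184 in Wild-type and 158 to 294 in Mdmx-Tg. Their part in the stem cell lists was not tested.

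The 39 tested genes of the stem cell surface and niche had a median of 0.41, with 4 higher and 1 lower without overlap, and 0.18 without Mdmx-Tg 1 or 0.26 without Wild-type 2. Cd27, a receptor of the tumour necrosis factor family, was at 73.2, 45.8 and 55.9 CPM in Wild-type and 112, 134 and 94.3 in Mdmx-Tg. Eng, the TGF-beta co-receptor endoglin, was lower at 60.7, 31.5 and 67.0 CPM against 85.5, 76.8 and 110. Self-renewal genes known from leukaemia, 43 of them tested, had a median log2 change of 0.52, with 34 above 0, 6 higher and 2 lower without overlap, and 0.30 without Mdmx-Tg 1. Msi2, an RNA-binding protein of stem cells, was at 77.0, 63.3 and 45.9 CPM in Wild-type and 114, 127 and 92.4 in Mdmx-Tg. Myb was at 179, 204 and 143 CPM against 264, 262 and 224, and Hoxa7 at 11.97, 12.3 and 8.87 against 24.8, 23.7 and 15.8. Several genes, Mecom and Erg among them, stand in both this list and that of the transcription factors.

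Growth-related lists were below 0 with few genes apart. S phase genes had a median of -0.28 over 50 genes (38 below 0, 1 higher and 4 lower without overlap), and mitosis genes had -0.19 over 51 (42 below 0, 0 higher and 3 lower). Rrm1, the large subunit of ribonucleotide reductase, was at 323, 456 and 505 CPM in Wild-type and 242, 270 and 318 in Mdmx-Tg. Ccne1, the cyclin of S phase entry, was at 99.6, 135 and 118 CPM in Wild-type and 42.6, 26.7 and 93.3 in Mdmx-Tg. Aurkb, the kinase of the chromosomal passenger complex, was at 103, 128 and 146 CPM in Wild-type and 42.3, 71.0 and 102 in Mdmx-Tg. Without Wild-type 3 the medians were -0.10 for S phase and -0.03 for mitosis, and the per-library medians of Wild-type 1 were -0.32 and -0.36, near those of Mdmx-Tg 1 (-0.43 and -0.26) and Mdmx-Tg 2 (-0.45 and -0.33). Ccnd1, the gene of cyclin D1, was at 15.9, 14.3 and 16.4 CPM in Wild-type and 58.7, 48.4 and 14.3 in Mdmx-Tg, with Mdmx-Tg 3 at the Wild-type level.

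Ribosome biogenesis genes had a median of -0.22 over 50 genes, 42 below 0, with 8 lower and 0 higher without overlap, beside Nop2 above. Pes1, of the PeBoW complex, was at 136, 159 and 140 CPM in Wild-type and 69.1, 70.2 and 128 in Mdmx-Tg. Its edgeR adjusted p without Mdmx-Tg 3 was 0.0444, and edgeR's main fit did not call it. Bysl, a factor of small subunit assembly, was at 83.8, 87.7 and 105 CPM in Wild-type and 33.5, 24.1 and 80.2 in Mdmx-Tg. In the element-null mice the median of this list had the other sign (0.17 for double mutant minus Pu.1-URE-/-). There the erythroid (-0.84), mitochondrially encoded (0.42), stem cell transcription factor (0.44) and self-renewal (0.49) lists kept their sign. S phase (-0.11) and mitosis genes (-0.40) kept theirs too. Of the remaining lists some kept their sign and some did not, p53 regulators (0.07) and proteasome genes (0.07) among the latter. Glycolysis genes had a median of -0.23, with 7 lower and 3 higher without overlap, and -0.02 without Mdmx-Tg 2. Pfkm, the muscle-type phosphofructokinase, was at 80.5, 93.6 and 101 CPM in Wild-type and 30.2, 46.5 and 61.1 in Mdmx-Tg. DNA repair genes had a median of -0.28 over 58 genes, with 7 lower and 1 higher, and -0.10 without Wild-type 3. Blm, the Bloom syndrome helicase, was at 42.4, 83.7 and 53.2 CPM in Wild-type and 13.8, 16.8 and 38.2 in Mdmx-Tg (2.61-fold lower, DESeq2 adjusted p = 0.0457, edgeR 0.367). Msh3, of mismatch repair, was higher at 19.6, 39.5 and 24.01 CPM against 8.13, 17.7 and 12.8.

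**Figure D4:**
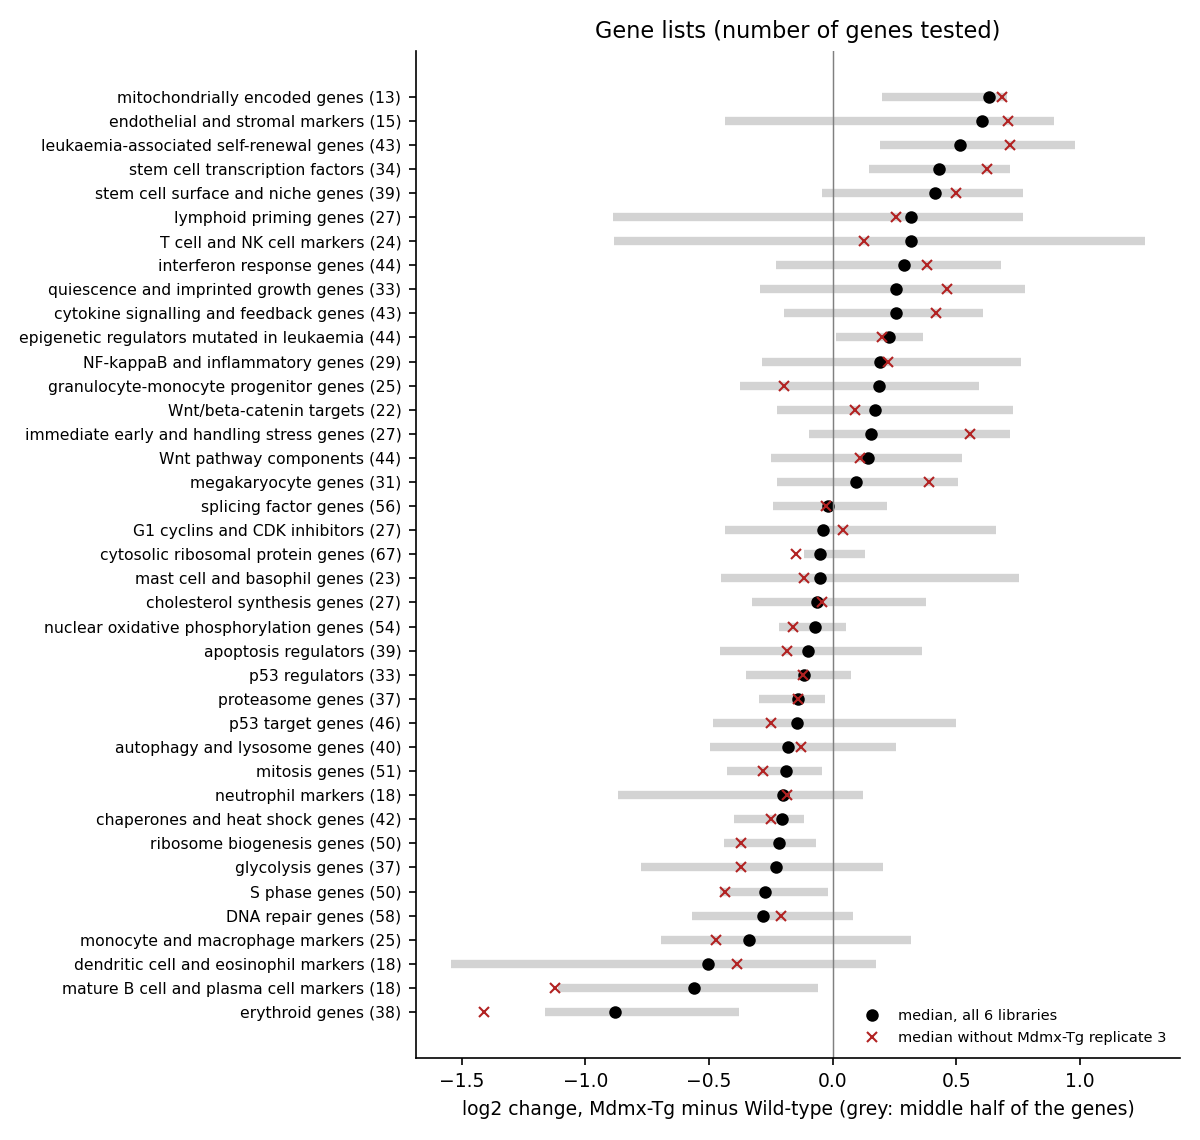
Median log2 change (Mdmx-Tg minus Wild-type) of 39 gene lists, with the number of genes tested, with all 6 libraries kept (black) and without Mdmx-Tg 3 (red cross), and the middle 50% of genes in grey. The erythroid list lies lowest at -0.88 and the mitochondrially encoded genes highest at 0.63.

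**Figure D5:**
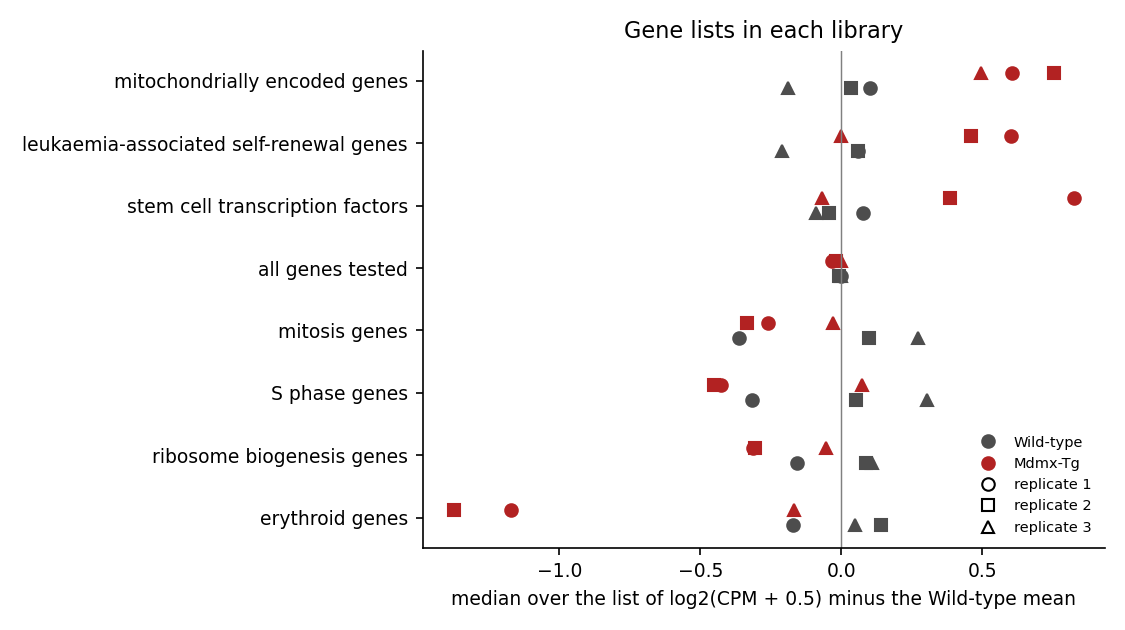
Median over each list of log2(CPM + 0.5) minus the Wild-type mean, for each library. For the mitochondrially encoded genes the 3 Mdmx-Tg libraries lie above all Wild-type libraries, and in the other lists Mdmx-Tg 3 lies among or next to the Wild-type libraries.

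Several lists had members apart in both directions, where 6.61% of all genes were higher and 7.05% lower without overlap. Of 43 genes of cytokine signalling 5 were higher and 3 lower without overlap, and Stat5a, which transmits signals from Jak2, was at 96.2, 142 and 125 CPM in Wild-type and 175, 303 and 142 in Mdmx-Tg. Interferon response genes had 5 higher and 3 lower of 44. Eif2ak2, the double-stranded RNA sensor PKR, was at 29.6, 25.2 and 25.3 CPM in Wild-type and 42.0, 53.8 and 45.0 in Mdmx-Tg (DESeq2 adjusted p = 0.00830, edgeR 0.363). Among 40 autophagy and lysosome genes 4 were higher and 5 lower. Atg10, an enzyme of ATG12 conjugation, was at 9.28, 11.4 and 13.4 CPM in Wild-type and 32.4, 39.2 and 17.4 in Mdmx-Tg, and Atg5, its conjugation target, was lower at 31.4, 45.0 and 42.5 against 65.3, 57.1 and 81.8. Splicing factors had 6 higher and 3 lower of 56. Son was at 211, 206.9 and 244 CPM in Wild-type and 296, 328 and 270 in Mdmx-Tg, and Snrpb, a core protein of the spliceosomal Sm ring, was lower at 388, 343 and 466 against 494, 581 and 711. The medians of the cytokine, interferon, autophagy and splicing lists changed sign under at least 1 setting.

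Among regulators of apoptosis, Xiap, an inhibitor of caspases, was at 29.2, 16.9 and 16.5 CPM in Wild-type and 53.5, 36.7 and 39.6 in Mdmx-Tg (DESeq2 adjusted p = 0.0440, edgeR 0.367). Bcl2l11, the death-promoting protein BIM, was lower at 6.86, 4.16 and 6.55 CPM against 13.3, 12.4 and 16.4. These 2 were the members of that list, of 39 tested, whose groups did not overlap, beside 13.7% of all genes apart in either direction. The counts of the lists below stand beside 6.61% of all genes higher and 7.05% lower without overlap. Of 22 Wnt/beta-catenin targets 1 was higher and 0 were lower without overlap. Of 44 pathway components 5 were higher and 3 lower, among them Gsk3b, the kinase that marks beta-catenin for degradation, at 263, 382 and 295 CPM in Wild-type and 576, 882 and 420 in Mdmx-Tg (2.00-fold, DESeq2 adjusted p = 0.0331, edgeR 0.367). Of 33 quiescence and imprinted growth genes 3 were higher and 0 lower without overlap, with a median of 0.26 that changed sign in some settings. Igf2r, an imprinted receptor that clears IGF2, was at 44.5, 48.3 and 34.0 CPM in Wild-type and 71.7, 105 and 61.1 in Mdmx-Tg. Foxo3, a transcription factor of quiescence, was at 182, 196 and 208 CPM in Wild-type and 380, 677 and 213 in Mdmx-Tg, higher without overlap but by little in Mdmx-Tg 3. Chaperones had 0 higher and 3 lower of 42 (median -0.20), proteasome genes 0 higher and 3 lower of 37 (median -0.14), and megakaryocyte genes 2 higher and 0 lower of 31 (median 0.10).

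Markers of other cell types were read against the 13.7% of all genes that were apart in either direction. Of 18 tested markers of plasma cells and mature B cells 0 were apart, of 18 neutrophil markers 0, of 25 monocyte and macrophage markers 2 higher and 2 lower, of 24 T and NK cell markers 0 higher and 2 lower, and of 18 dendritic cell and eosinophil markers 0 higher and 2 lower. Of 23 mast cell and basophil genes 2 were higher and 3 lower. Gzmb, the protease granzyme B, was at 11.9, 20.8 and 22.5 CPM in Wild-type and 0.326, 2.85 and 5.92 in Mdmx-Tg. Il1rl1, the interleukin-33 receptor ST2 of mast cells, was at 32.5, 39.9 and 39.7 CPM in Wild-type and 12.6, 4.89 and 17.4 in Mdmx-Tg (DESeq2 adjusted p = 0.0465, edgeR 0.369). Of the 25 listed neutrophil markers 5 were at 0 in all 6 libraries.

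The double mutants are labelled Mdmx-Tg as well and share no library with the comparison above. Whether their transgene is the same insertion is not given in the sources used here. Y-linked transcripts were at 205, 4.91 and 211 CPM in double mutants 1, 2 and 3, and at 2.28, 3.39 and 5.25 in Pu.1-URE-/-. Mitochondrially encoded transcripts took 2.21%, 2.43% and 3.23% of reads in the double mutants and 1.47%, 1.84% and 1.66% in Pu.1-URE-/-. The part of these library differences in the shared directions below was not tested. Double mutants minus Pu.1-URE-/- gave 0 edgeR calls (0%). Of the 993 genes that were higher without overlap in Mdmx-Tg, 717 (72.2%) had a positive change there, against 50.4% of all genes, and 244 (24.6% of the 993 and 16.4% of the 1485 in the other comparison) were higher without overlap, against 9.89% of all genes. Of the 1058 that were lower, 744 (70.3%) had a negative change, against 49% of all genes, and 229 (21.6% of the 1058 and 17.0% of the 1344 in the other comparison) were lower without overlap, against 8.95%. Mdm4 was at 93.9, 56.2 and 90.3 CPM in Pu.1-URE-/- and 353, 163 and 210 in the double mutants (log2 1.59, SE 0.46). Cdkn1b was at 37.3, 37.9 and 27.9 CPM against 109, 52.6 and 144, Dda1 at 136, 98.0 and 110 against 78.9, 76.2 and 62.9, and Marcks at 47.5, 48.7 and 47.2 against 89.98, 69.98 and 81.9. In these 4 genes the transgene went with the same direction on both backgrounds, without overlap on either.

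The difference between the 2 backgrounds was tested as an interaction. edgeR called 0 genes (0%), 871 (5.80%) had an unadjusted p under 0.05, and DESeq2 called 194. Cebpa had an interaction of -3.10 on the log2 scale, since it was at 38.3, 23.8 and 41.1 CPM in Pu.1-URE-/- and 29.9, 17.3 and 12.4 in the double mutants (edgeR interaction adjusted p = 0.680). Edrf1 was at 22.9, 24.1 and 15.1 CPM against 19.1, 21.8 and 24.9, without the reduction seen with the element intact (edgeR interaction adjusted p = 0.680). Chek2 was at 39.4, 34.8 and 43.0 CPM against 47.7, 45.4 and 57.5, the other direction from Mdmx-Tg against Wild-type (edgeR interaction adjusted p = 0.767). None of these differences passes the adjustment.

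For transcript shifts, of the 26 transcripts whose share was called, 17 moved the same way on average in double mutants against Pu.1-URE-/-, and 4 did so without overlap, where 6.58% of all transcript shares were higher and 7.74% lower without overlap. Limk2-204 had no read in any of those 6 libraries, and Limk2-201 had 2638, 2122 and 2072 reads in Pu.1-URE-/- and 1418, 974 and 1279 in the double mutants. Ints14-201 and Rbak-201 had reads in all 6 (Rbak-201 343, 401 and 393 against 612, 946 and 878). Hspa8-201 had 1868, 2436 and 1941 reads in Pu.1-URE-/- and 21916, 945 and 31660 in the double mutants, high in 2 of 3. Hnrnpa1-205 had 5857, 23231 and 5649 reads against 23649, 41735 and 32935, and Atp2a3-204 had 435, 98 and 274 against 968, 801 and 1903, both without overlap in the direction seen in Mdmx-Tg. Whether the shifts differ between the backgrounds was not tested.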

How the data were processed

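Polyadenylated RNA of sorted bone marrow cells was sequenced in paired ends, 1 library a mouse, per the labels. The submitters' processing notes name FastQC, Salmon and DESeq2 and build GRCm38 (mm10), and give no versions. Per the file headers, the authors deposited Salmon estimated counts and TPM per transcript. The estimated counts were summed per gene with the GENCODE M21 map, which held 115995 of 116248 transcripts (the other 253 took 0.0379% to 0.0841% of reads), and rounded to whole numbers. The deposited TPM values were not used in any test.

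Genes and transcripts were tested in R 4.3.3 with edgeR 4.0.16 (quasi-likelihood test, TMM factors, low-count filter with a minimum of 10), fitted over all 12 libraries with 1 mean a genotype, with Benjamini-Hochberg adjustment and a threshold of 0.05. Transcript shifts were tested with edgeR's diffSpliceDGE and with limma 3.58.1, and DESeq2 1.42.0 and limma-voom were alternatives, beside other scalings, filters and covariates and each library left out. On data simulated at the spread found here, DESeq2 called more unchanged genes than edgeR's gene test. On data simulated with less spread than found here, diffSpliceDGE called more unchanged genes than limma's shift test. Groups are called apart, or without overlap, when all 3 libraries of a genotype lie beyond all 3 of the other. CPM uses TMM-scaled library sizes. Replicate numbers were not used to pair the mice in the main fits. Over all genes, deviations of same-numbered libraries correlated at -0.0421 to -0.0103. The list of immediate early and handling stress genes, however, fell with replicate number in both genotypes. It summed to 2206, 1056 and 368 CPM in Wild-type 1, 2 and 3 and to 2694, 1297 and 477 in Mdmx-Tg 1, 2 and 3. A batch shared by replicate number was not tested beyond the fits with a term for that number.

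Named genes are the p53 regulators, the 15 genes a direction with the smallest edgeR p among those apart whose log2 CPM averaged 2 or more, up to 10 a direction by DESeq2, up to 5 a list by edgeR p, and the 10 smallest shifts and transcripts. The gate genes, Cdkn1a, Klf1, Gata1, Rhag, Hspa8, Hnrnpa1, Mst1r and Zbtb45 lie outside this rule and were chosen after their values were seen. The comparison and the 40 lists (1366 genes) were chosen with earlier results of these data known. Transcript sequences are from GENCODE M21 and start site windows from RefSeq (GRCm38.p6). Some items are not reported here.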

Additional observations from a re-analysis of the deposited data

How the results depend on the processing

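Of genes, edgeR called 0 in the main fit over all 12 libraries and with other scaling factors or filters. Fitted on only the 6 libraries it called 1, and leaving out 1 library gave 0 to 109. DESeq2 called 330, and 93 on only the 6 libraries, and 346, 226 and 220 without Wild-type 1, 2 and 3 and 308, 221 and 1407 without Mdmx-Tg 1, 2 and 3. The high ends came without Mdmx-Tg 3. Of transcripts, 10 were called, 2 on only the 6 libraries, 1657 by DESeq2, and 1 to 121 with 1 library left out. Transcript shifts numbered 69, and 16 (without Mdmx-Tg 2) to 205 (without Mdmx-Tg 3) with 1 library left out. With the replicate block, genes gave 0 calls, transcripts 0 and shifts 31. The interaction gave 0 calls by edgeR, also with each library left out, 1 with the immunoglobulin share as a covariate, and 194 by DESeq2. The log2 change of Mdm4 was 2.59 by DESeq2 and 2.58 by DESeq2 on only the 6 libraries, both past the threshold, and by edgeR 2.22 to 2.95 with 1 library left out, 4.52 with the transcript length offset and 2.19 when mice were blocked by number series. DESeq2 gave 2.80, 2.71 and 2.32 without Wild-type 1, 2 and 3, and 2.22, 2.51 and 2.95 without Mdmx-Tg 1, 2 and 3. Signs turned in 4 genes. Mdm2 was -0.0384 with detected genes as a covariate, and Daxx, at -0.60 in the main fit, was 0.33 with a length offset. Kit was 0.0275 with Y-linked reads as a covariate, 0.076 with a length offset and 0.00213 by DESeq2 without Wild-type 2. Spi1, at -0.41 (SE 1.18) in the main fit, was 0.23 with a length offset and 3.12 with detected genes as a covariate. With 1 library left out Spi1 was -1.004 to 0.951 by edgeR. Spi1 was 0.951 by edgeR and 0.956 by DESeq2 without Wild-type 1, and 0.0331 and 0.0431 without Mdmx-Tg 3. For all of these the cause was not tested. Of 40 list medians, 21 changed sign in at least 1 setting.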
